A study of Mus musculus with 26 samples.

Results

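The aquaporins of mouse choroid plexus (ChP) are represented here by 3 genes, Aqp1 (ENSMUSG00000004655), Aqp4 (ENSMUSG00000024411) and Aqp11 (ENSMUSG00000042797), chosen by symbol from the 55416 genes listed in the deposited count tables. All 3 passed the minimum expression level for testing, a group mean of 1 CPM or more in both Ctrl and SCNx (CPM, the count scaled to the same total in every library), whereas the other 9 listed members of the aquaporin family did not. ChP of the 4th ventricle was sequenced from adult male C57Bl6J mice after sham surgery (Ctrl, 12 mice) or lesion of the suprachiasmatic nucleus (SCNx, 12 mice), the hypothalamic pacemaker of circadian rhythms. These mice were killed every 4 h during 2 days of constant darkness, 1 mouse of each group per circadian time from CT0 to CT44, and their ChP was dissected by hand. In addition, 2 adult male FoxJ1-ERT2-Cre+/-; Bmal1fl/fl mice given tamoxifen in the diet (KO) were killed under a light-dark cycle at ZT7 (day) and ZT18 (night). Foxj1 drives the recombinase in cells with motile cilia, and the floxed gene is the clock gene Bmal1, listed as Arntl. The KO tissue was cut by laser from frozen brains and made into libraries with another kit, and no Cre-negative library prepared in that way was analysed here. With 1 mouse per time, p-values measure the spread of single mice around a group mean or a fitted curve.

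Aquaporins are membrane channels through which water follows osmotic gradients. AQP1 is the abundant water channel of the apical membrane of ChP epithelium, where it takes part in the secretion of cerebrospinal fluid. AQP4 is the channel of astrocyte endfeet and of ependyma and is thereby a mark of brain tissue next to the plexus, while AQP11 is an unorthodox family member found mainly in intracellular membranes such as the endoplasmic reticulum.

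In the GENCODE vM21 annotation of GRCm38, Aqp1 lies on chromosome 6 from 55336432 to 55348555 (plus strand) and Aqp11 on chromosome 7 from 97724006 to 97738289 (minus strand). The reads were mapped by the authors to GRCm39, so these positions locate the genes and do not describe the counting. Aqp4 is overlapped by an antisense gene, and since the strand setting of the counting was not given in the sources used here, reads of both cannot be told apart. The promoters of Aqp1 and Aqp11 are shown so that clock-related letters can be looked up. No promoter sequence of Aqp4 was available in the sources used here. Each run is 300 bases of RefSeq sequence (GRCm38.p6), 250 before and 50 after the start that RefSeq gives (55336299 for Aqp1 and 97738247 for Aqp11, which differ from the GENCODE starts above), written 5′ to 3′ on the gene's own strand from chr6:55336049-55336348 and chr7:97738198-97738497, and capitals mark matches to the motifs searched.
Aqp1: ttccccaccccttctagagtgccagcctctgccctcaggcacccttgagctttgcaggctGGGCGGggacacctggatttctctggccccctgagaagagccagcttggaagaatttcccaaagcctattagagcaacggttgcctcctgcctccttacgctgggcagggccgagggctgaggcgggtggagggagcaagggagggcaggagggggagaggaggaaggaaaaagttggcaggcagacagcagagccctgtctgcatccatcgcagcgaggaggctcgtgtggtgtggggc
Aqp11: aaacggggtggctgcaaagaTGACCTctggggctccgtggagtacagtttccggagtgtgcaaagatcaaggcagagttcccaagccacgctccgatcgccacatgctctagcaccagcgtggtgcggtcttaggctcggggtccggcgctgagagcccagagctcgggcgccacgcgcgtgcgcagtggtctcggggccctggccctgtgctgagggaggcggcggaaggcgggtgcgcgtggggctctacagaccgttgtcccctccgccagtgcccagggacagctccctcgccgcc
Both strands were searched for 8 motifs, and a base could count in more than 1 of them. The window of Aqp1 held 1 match, a GC box (GGGCGG) that began 190 bases before the start and that 35.9% of the 32544 different promoters searched also held. The window of Aqp11 held 1 match, to the letters searched as ROR element (AGGTCA), on the opposite strand 230 bases before the start. Of the promoters, 16.2% held these letters. The bases beside them were not searched, so a full element was not identified. An E-box (CACGTG), the element bound by the BMAL1 complex, was in 7.17% of promoters and in neither of these windows. The same was so for the D-box (TTANNTAA, in 5.98% of promoters). It was so as well for the core of the cAMP response element (TGACG), which 20.9% of promoters held. The core bound by the glucocorticoid receptor (AGAACA) was in 18.9% of promoters and was not found in the windows. Nor was the TATA box (TATAAA), which 13.6% of promoters held. The last motif, the CCAAT box of 37.4% of promoters, was likewise not found. Aqp11 had 27 CpG dinucleotides and 68.0% G and C, Aqp1 had 8 and 62.7%, and the median promoter had 7.0 and 53.0%.

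Sequencing depth was 38751201 to 47335258 assigned reads in Ctrl, 41807043 to 49527655 in SCNx, and 17425207 and 18059227 in KO. Markers of the epithelium were abundant in every library. Their sum over 10 genes, including Ttr, Folr1 and Kl, was 91932 to 105899 CPM in Ctrl and 63205 to 104075 CPM in SCNx, lowest in SCNx CT32, and 47319 and 52774 CPM in KO. Several libraries stood apart in markers of other tissue. The sum of 9 neuronal and cerebellar markers had a median of 16.6 CPM in Ctrl and 15.3 CPM in SCNx, but was 316 CPM in Ctrl CT4, 311 CPM in SCNx CT32, and 206 and 317 CPM in KO. The sum of 8 hepatocyte genes was 1973 CPM in Ctrl CT16 and 10740 CPM in SCNx CT0, against group medians of 1.66 and 3.28 CPM. In bulk tissue of this kind, fewer cells of a type and less RNA per cell cannot be told apart.

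Aqp1 was by far the most abundant aquaporin transcript of ChP. Per kilobase of merged exon it was present at 169 ± 33.9 CPM in Ctrl (SD, n = 12) and 172 ± 21.9 CPM in SCNx (SD, n = 12). Aqp4 followed with 1.49 ± 1.195 CPM per kilobase in Ctrl and 2.30 ± 4.09 in SCNx, and Aqp11 with 1.32 ± 0.221 in Ctrl and 1.18 ± 0.129 in SCNx (SD, n = 12 each). Without Ctrl CT4 the Aqp4 mean was 1.16 ± 0.395 in Ctrl and without SCNx CT32 it was 1.14 ± 0.705 in SCNx (SD, n = 11 each), a choice made after the values were seen, and Aqp11 was then 1.31 and 1.198. The order of Aqp4 and Aqp11 thus turned with single libraries, and on this measure they did not differ in level beyond their spread over mice. Their order depends on the length used as well. Merged exons span 6233 bases for Aqp4 and 9418 for Aqp11, and the longest transcripts 5054 and 5798. The Aqp1 level lay far above both. All levels below are CPM of the whole gene.

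Aqp1 varied with circadian time in Ctrl mice. At CT0, CT4, CT8, CT12, CT16 and CT20 of the first day its level was 467, 468, 544, 466, 352 and 352 CPM, and at the same phases of the second day, from CT24 to CT44, it was 429, 478, 599, 511, 355 and 300 CPM. The highest value of each day thus fell in the later part of the subjective day, 8 h after its start, and the lowest in the subjective night, in both days. A 24 h cosine curve fitted to the log2 levels had an amplitude (distance from mean to peak) of 0.37 ± 0.053 (SE, n = 12), a peak at 7.11 ± 0.546 h and a 1.67-fold difference from trough to peak, and accounted for 84.5% of the variance. Fitted to each day alone (n = 6), the amplitude was 0.30 with a peak at 6.44 h on the first day and 0.45 with a peak at 7.56 h on the second. In edgeR's quasi-likelihood test over all genes, the Aqp1 rhythm in Ctrl passed the threshold of 0.05 (log2 amplitude 0.37, Benjamini-Hochberg adjusted p = 0.00539), as did 10.7% of the 13697 genes tested. It ranked 486 of these by p, and its amplitude exceeded that of 90.1% of them, the median amplitude being 0.11. The study, with other rhythm algorithms on the same libraries, reported non-circadian expression of Aqp1, Aqp4 and Aqp11. Its threshold on the adjusted scores of these algorithms was more lenient than 0.05, and it aimed at rhythms of medium to high amplitude. It also cited an earlier report without daily variation of Aqp1 expression. The call made here thus differs from that of the study.

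In SCNx mice Aqp1 had no rhythm that passed. Its level was 461, 466, 504, 462, 486 and 400 CPM from CT0 to CT20 and 444, 459, 288, 493, 465 and 481 CPM from CT24 to CT44. The SCNx values lay close together except for SCNx CT32, the lowest Aqp1 level of the 24 libraries, at a phase where the Ctrl mouse had the highest. SCNx CT32 also had the lowest sum of epithelial markers, and per 1000 CPM of these markers its Aqp1 level was 4.56, within the 3.88 to 5.21 of the other SCNx libraries. In the subjective night, at CT16, CT20, CT40 and CT44, the 4 Ctrl libraries (300.0 to 355 CPM) all lay below the 4 SCNx libraries (400 to 486 CPM). This set of times was chosen after the values were seen. The fitted log2 amplitude in SCNx was 0.053 in edgeR (adjusted p = 0.871), where 0% of genes passed, 2032 genes had an unadjusted p under 0.05 and DESeq2 called 432.

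**Figure D1:**
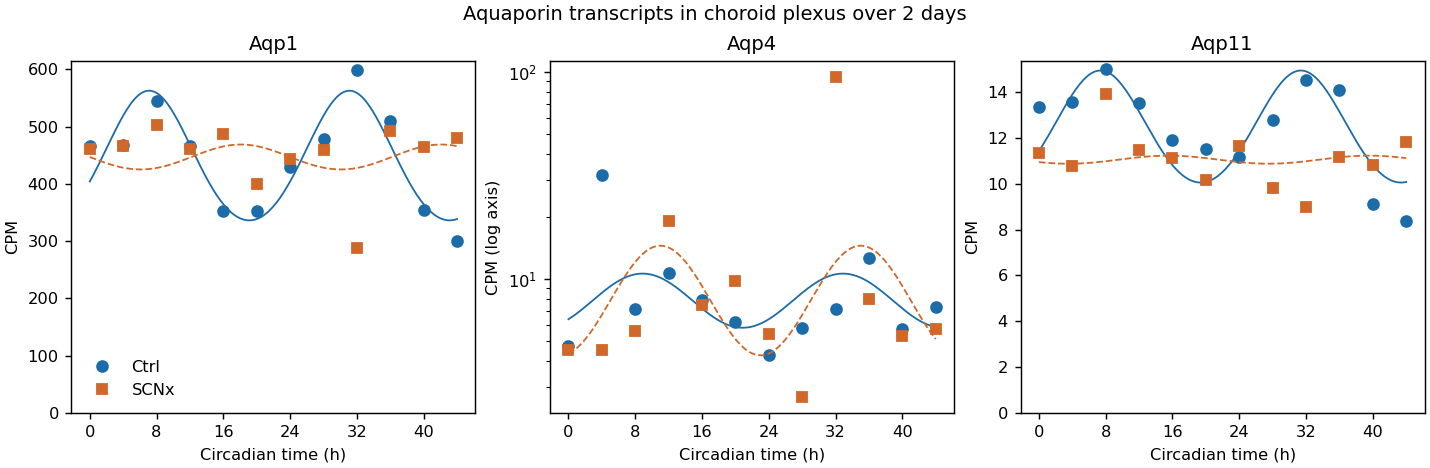
Level of Aqp1, Aqp4 and Aqp11 (CPM, log axis for Aqp4) against circadian time (h) in Ctrl (circles) and SCNx (squares), 1 mouse per point, with the fitted 24 h curves (solid for Ctrl, dashed for SCNx). Aqp1 and Aqp11 in Ctrl were high around CT8 and CT32 and low around CT20 and CT44, and the Aqp4 curves bend toward single high libraries, Ctrl CT4 at 31.7 CPM and SCNx CT32 at 94.1 CPM.

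The test of the difference in rhythm between the groups did not pass for Aqp1. The fitted curves differed by 0.42 on the log2 scale (edgeR unadjusted p = 0.00197, adjusted p = 0.0699), while 2.12% of all genes passed. This result turned on single libraries and on the fit. It passed without SCNx CT32 (adjusted p = 0.0214), without SCNx CT8 (adjusted p = 0.0402) and with DESeq2 (adjusted p = 0.00967).

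Aqp11 followed a course like that of Aqp1 in Ctrl, at a far lower level. Its CPM was 13.4, 13.6, 15.04, 13.5, 11.9 and 11.5 from CT0 to CT20 and 11.2, 12.8, 14.5, 14.1, 9.14 and 8.37 from CT24 to CT44. As for Aqp1, the highest values fell at CT8 and CT32, and the lowest of the 12 was that of CT44. The cosine fit gave an amplitude of 0.29 ± 0.070 (SE, n = 12), a peak at 7.38 ± 0.938 h and 64.8% of the variance, with a smaller amplitude on the first day (0.17) than on the second (0.40). The rhythm passed in edgeR (log2 amplitude 0.28, adjusted p = 0.0299, rank 1125), but it did so by a small margin. Leaving out 1 of the Ctrl mice of CT8, CT12, CT24, CT32, CT36, CT40 or CT44 raised the adjusted p to between 0.051 and 0.134.

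In SCNx the Aqp11 level was 9.01 to 13.9 CPM with a median of 11.2 CPM, again lowest at CT32 and highest at CT8. Its fitted log2 amplitude was 0.018 (edgeR adjusted p = 0.980). A cosine fit to each day alone (n = 6) gave 0.15 with a peak at 8.48 h on the first day. On the second day, which holds SCNx CT32, it gave 0.17 with a peak at 19.4 h. The small amplitude over both days thus joins days of nearly opposite phase. The difference in rhythm between Ctrl and SCNx did not pass for Aqp11 (0.28 on the log2 scale, unadjusted p = 0.0309, adjusted p = 0.277). In the subjective night the groups overlapped, with Ctrl at 8.37 to 11.9 CPM and SCNx at 10.2 to 11.8 CPM. Over the 12 Ctrl libraries the log2 levels of Aqp1 and Aqp11 had a Pearson correlation of 0.89, over the 12 SCNx libraries of 0.74, and over all 24 Aqp1 was at rank 40 of 13696 genes by likeness to Aqp11. These values describe libraries that share their depth and marker content.

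**Figure D2:**
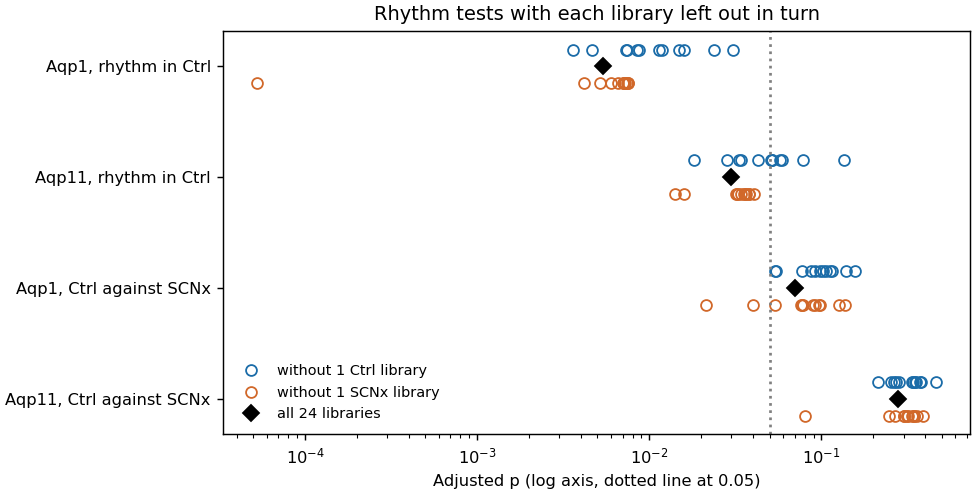
Adjusted p (log axis) of the 24 h rhythm in Ctrl and of its difference from SCNx for Aqp1 and Aqp11, with all 24 libraries (diamonds) and with 1 Ctrl or 1 SCNx library left out (circles), the dotted line marking 0.05. The Aqp1 rhythm in Ctrl stayed below the line in all 24 cases, between 5.29e-05 and 0.0305, and the Aqp11 rhythm crossed it in 7.

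Aqp4 had a low level in most libraries and a high one in few. In Ctrl its lowest, median and highest levels were 4.29, 7.18 and 31.7 CPM, the highest in Ctrl CT4, and the next highest was 12.6 CPM in Ctrl CT36. In SCNx they were 2.70, 5.66 and 94.1 CPM, the highest in SCNx CT32, followed by 19.0 CPM in SCNx CT12. Ctrl and SCNx overlapped over most of their range, and the library with the highest Aqp4 in each group was the one with the highest neuronal markers. The part of admixed brain tissue in these levels was not tested. No rhythm of Aqp4 passed in edgeR, with log2 amplitudes of 0.59 in Ctrl (adjusted p = 0.674) and 1.33 in SCNx (unadjusted p = 0.0121, adjusted p = 0.204), and neither did the difference between them (0.92, adjusted p = 0.683). Without SCNx CT32 the amplitude in SCNx was 0.70 and its peak moved from 9.52 to 14.1 h (adjusted p = 0.429).

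The relation of Aqp4 to astrocyte content was examined across mice with a list of 10 astrocyte and Bergmann glia markers. The list was dominated by Slco1c1, a thyroid hormone and organic anion transporter with a median of 692 CPM in Ctrl, and by Slc7a10, an amino acid transporter with a median of 185 CPM, both high in every Ctrl and SCNx library. With the whole list, no relation passed among the 6 tested (permutation test, two-sided, 100000 permutations). For Aqp4 Pearson's r was 0.66 in Ctrl (p = 0.0838, adjusted p = 0.131) and 0.86 in SCNx (p = 0.0113, adjusted p = 0.0679), and Spearman's rho was -0.28 (permutation p = 0.378, adjusted p = 0.567) and 0.31 (permutation p = 0.332, adjusted p = 0.567). Without the 2 libraries farthest from the median of the marker sum, r was -0.54 in Ctrl and 0.43 in SCNx, so that the relation rested on those libraries.

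A shorter list of 7 markers, chosen after the values were seen, leaves out Slco1c1, Slc7a10 and Agt, which was high in the libraries with hepatocyte genes. It holds Gfap, the intermediate filament of astrocytes, the glutamate transporters Slc1a2 and Slc1a3, the gap junction gene Gja1, and Aldoc, Ntsr2 and Gdf10. Their sum had a median of 59.7 CPM in Ctrl and 57.4 CPM in SCNx, and reached 776 CPM in Ctrl CT4 and 970 CPM in SCNx CT32. With these, Pearson's r for Aqp4 was 0.89 in Ctrl (permutation p = 0.0024, adjusted p = 0.0072) and 0.97 in SCNx (permutation p = 8e-05, adjusted p = 0.00048), and Spearman's rho was 0.73 (permutation p = 0.00822, adjusted p = 0.0247) and 0.88 (permutation p = 0.00036, adjusted p = 0.00216). Without the 2 libraries farthest from the median in each group, r was 0.63 in Ctrl (n = 10, permutation p = 0.0519, adjusted p = 0.156) and 0.75 in SCNx (n = 10, permutation p = 0.0146, adjusted p = 0.0878). Aqp4 was 4.09% to 16.96% of the sum of the 7 markers in Ctrl and 7.52% to 16.0% in SCNx. No relation of Aqp1 or Aqp11 to either list passed. For Aqp1 in SCNx, r with the 7 markers was -0.83 (permutation p = 0.0482, adjusted p = 0.0964), and 0.20 without SCNx CT12 and SCNx CT32.

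**Figure D3:**
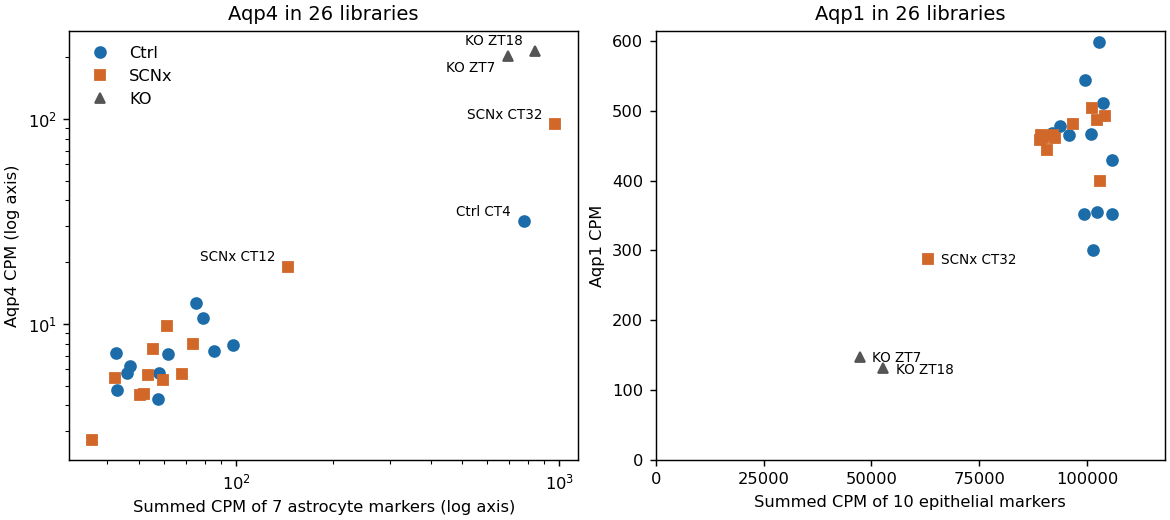
Left, Aqp4 (CPM, log axis) against the summed CPM of 7 astrocyte markers (log axis); right, Aqp1 (CPM) against the summed CPM of 10 epithelial markers, in 12 Ctrl (circles), 12 SCNx (squares) and 2 KO (triangles) libraries. Ctrl CT4, SCNx CT32 and both KO libraries stand apart in astrocyte markers, and SCNx CT32 and KO have the fewest epithelial markers and the lowest Aqp1.

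The mean level of the aquaporins did not differ detectably between SCNx and Ctrl when all times were pooled. The log2 difference of SCNx from Ctrl was 0.024 ± 0.0996 for Aqp1 (SE, 95% interval -0.18 to 0.23, edgeR adjusted p = 0.966) and -0.16 ± 0.084 for Aqp11 (SE, interval -0.33 to 0.011, adjusted p = 0.568). For Aqp4 it was 0.64 ± 0.52 (SE, interval -0.44 to 1.71, adjusted p = 0.716), but without SCNx CT32 it was -0.39. In this comparison 0% of genes passed with edgeR, 1283 had an unadjusted p under 0.05, and DESeq2 called 7.

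In the KO libraries the targeted gene was examined first. Arntl was 10.6 CPM at ZT7 and 9.36 CPM at ZT18, within the 2.01 to 39.4 CPM of Ctrl, where it had a rhythm of log2 amplitude 2.23 with a peak at 22.9 h (edgeR adjusted p = 1.61e-06). A count over the whole gene does not check the loss of an exon. With 1 mouse per time there was no test, and the intervals given for KO cover counting error only.

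Aqp1 and Aqp11 were lower and Aqp4 higher in both KO libraries than in any Ctrl library. The read totals of KO were not adjusted by normalization factors, whereas those of Ctrl and SCNx were (factors of 0.955 to 1.08). Aqp1 was 148 CPM at ZT7 (95% exact Poisson interval 142 to 154) and 131 CPM at ZT18 (126 to 137), against at least 300.0 CPM in Ctrl. Aqp11 was 6.31 CPM (5.19 to 7.61) and 5.92 CPM (4.86 to 7.16), against at least 8.37 CPM in Ctrl. Aqp4 was 203 CPM (196 to 210) and 215 CPM (208 to 222), 6.40 and 6.77 times the highest Ctrl level. Several other measures moved with these levels. The sum of epithelial markers was also low in KO, and per 1000 CPM of it Aqp1 was 3.12 at ZT7 and 2.49 at ZT18, against 2.96 to 5.83 in Ctrl. Aqp11 was not scaled in this way, so its low level in KO is not set apart from that of the markers. The sum of the 7 astrocyte markers was 695 and 843 CPM in KO, no higher than in SCNx CT32, whereas Aqp4 made up 29.2% and 25.5% of it. Mitochondrial genes took 25.1% of the reads at ZT7 and 21.8% at ZT18, against 3.92% to 8.77% in Ctrl and 4.84% to 7.49% in SCNx. RNA integrity was lower in the frozen KO tissue according to the study's methods. The KO mice were also older according to the study's methods, which describe no surgery on them. Genotype, tamoxifen, age, surgery, RNA quality, laser capture, library kit, lighting and institution cannot be told apart here.

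For the day-night difference, the ratio of ZT7 to ZT18 in KO was 1.13 for Aqp1 (95% exact interval 1.06 to 1.19), 1.07 for Aqp11 (0.809 to 1.40) and 0.945 for Aqp4 (0.903 to 0.989). The nearest values in Ctrl are CT8 over the mean of CT16 and CT20, and CT32 over the mean of CT40 and CT44, which were 1.55 and 1.83 for Aqp1 and 1.28 and 1.66 for Aqp11. The same ratios in SCNx were 1.14 and 0.609 for Aqp1 and 1.31 and 0.796 for Aqp11, the second of each resting on SCNx CT32. Times and lighting differ between KO and the other groups, so these ratios stand side by side without a comparison.

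Among 25 genes of fluid secretion by the epithelium, all tested, 4 had a rhythm in Ctrl that passed in edgeR, which is 16% against 10.7% of all genes. The median amplitude of the 25 genes was 0.11, as over all genes. The 4 that passed were Kcne2, a potassium channel subunit (amplitude 0.28, peak 22.1 h, adjusted p = 0.00324), Atp1b2, a subunit of the sodium pump (0.19, peak 5.41 h, adjusted p = 0.00411), Trpv4, an osmosensitive cation channel (0.22, peak 21.6 h, adjusted p = 0.0198), and Car14, a carbonic anhydrase (0.25, peak 12.4 h, adjusted p = 0.0294). Their peaks thus lay at different phases, and only that of Atp1b2 came within 2 h of the peak of Aqp1. Atp1b2 was also the only one of the 25 for which the difference in rhythm between the groups passed (adjusted p = 0.0326), or 4% against 2.12% of all genes. In SCNx no rhythm and in the level comparison no gene of this list passed.

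Of 10 anchoring and perivascular partners of AQP4, all tested, 2 had a rhythm in Ctrl that passed, or 20% against 10.7% of all genes. They were Dtna, a component of the dystrophin complex (amplitude 0.19, peak 6.76 h, adjusted p = 0.014), and Trpv4, which stands in both lists. None passed in SCNx, in the difference of rhythms or in level. Of the 10 epithelial markers 1, the prolactin receptor gene Prlr, passed in Ctrl (amplitude 0.44, peak 3.51 h, adjusted p = 0.0108), and of the 10 astrocyte markers 1, Slc7a10 (amplitude 0.52, peak 5.95 h, adjusted p = 0.000498), which also passed in the difference between groups (adjusted p = 0.0311). Each is 10% of its list, a share near the 10.7% of all genes. Among markers of other cell types, 7 of 8 hepatocyte genes passed in Ctrl, where Ctrl CT16 held nearly all their reads, and so did 2 of 4 tested fibroblast genes, the collagen genes Col1a1 (amplitude 0.45, peak 5.02 h, adjusted p = 0.0124) and Col1a2 (amplitude 0.18, peak 8.07 h, adjusted p = 0.0334). No ependymal, neuronal, oligodendrocyte, endothelial, macrophage or blood marker that was tested passed in Ctrl.

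The genes most alike to each aquaporin were taken by Pearson correlation of log2 levels over the 24 Ctrl and SCNx libraries, as a description. For Aqp1 these included Olfml1 (0.90), Pcca, a subunit of propionyl-CoA carboxylase (0.89), Hadha, an enzyme of fatty acid oxidation (0.89), and Cpt1a, which loads fatty acids for mitochondrial import (0.88). For Aqp11 they were Tmem88 (0.87), the amino acid transporter Slc38a3 (0.86), the magnesium transporter Slc41a1 (0.85), Mxra8 (0.84) and Tor1aip2 (0.84). For Aqp4 they were Scg3 (0.97), a component of secretory granules, Luzp2 (0.95), the AMPA receptor gene Gria1 (0.94), Gpm6b (0.94) and Ptprz1 (0.93), and without Ctrl CT4 and SCNx CT32 these values fell to between 0.76 and 0.88. For the genes named for Aqp1, the values without these libraries were 0.84 to 0.92.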

How the data were processed

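Estimated counts per gene were deposited by the authors as Salmon output of the nf-core/rnaseq pipeline (reads trimmed with cutadapt 3.4, aligned with STAR to GRCm39, quantified with Salmon 1.9.0), without normalization. They were rounded here to whole numbers. Testing covered the 13697 genes whose CPM averaged 1 or more in both groups, on 24 libraries with edgeR 4.0.16 (TMM, quasi-likelihood F test, Benjamini-Hochberg over all tested genes), for level and for cosine and sine terms of 24 h per group. The rhythm algorithms of the study, under which it reported no circadian rhythm of the members, were replaced by this test. CPM in the text used total assigned reads, multiplied by the TMM factors (0.955 to 1.08) in Ctrl and SCNx and unadjusted in KO. The minimum level for testing used unadjusted totals. limma 3.58.1 and DESeq2 1.42.0 were alternatives, in R 4.3.3. Cosine fits with SE used log2 CPM. Permutations used Python 3.11.15 and numpy 2.4.6, and intervals scipy 1.17.1. The tests of level and of rhythm in Ctrl were checked on simulated counts. Those of rhythm in SCNx and of the rhythm difference were not. Rhythms were placed in 200 of the 13697 genes, a smaller share than was called in the data, so recovery there can differ. Of 24 h rhythms placed in Ctrl, 49% were recovered at a log2 amplitude of 0.3 and 76.5% at 0.6. A rhythm that did not pass can therefore have been missed. No 2 libraries were identical. KO libraries entered no test. The members and gene lists were chosen with earlier results of these data known. Genes named are the members, the other aquaporins with counts, Arntl, the 5 genes most alike to each member, genes of the pathway lists that passed, and the astrocyte markers. Prlr, Col1a1 and Col1a2 fall outside this rule and were named after their values were seen. Of the genes most alike to Aqp1, 1 is not reported here.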

Additional observations from a re-analysis of the deposited data

How the results depend on the processing

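The Aqp1 rhythm in Ctrl passed under every alternative run, with log2 amplitudes of 0.34 to 0.39 when 1 library was left out and 0.36 to 0.45 otherwise. The Aqp11 rhythm in Ctrl had amplitudes of 0.22 to 0.31 with 1 library left out, and did not pass in 7 of these 24 fits or without a filter on low counts (0.27, adjusted p = 0.104). The rhythm difference of Aqp1 ranged from 0.32 to 0.46 with 1 library left out, passing in 2 of 24 fits. It also passed with DESeq2 (0.42), with the astrocyte markers as covariate (0.45, adjusted p = 0.0142) or 7 of them (0.43, adjusted p = 0.00632), without Ctrl CT4 and SCNx CT32 (0.35, adjusted p = 0.0152), and without these and Ctrl CT16 and SCNx CT0 (0.34, adjusted p = 0.0202). The Aqp4 rhythm passed in Ctrl with the astrocyte covariate (0.88, adjusted p = 0.0429) and in SCNx without a filter (1.29, adjusted p = 0.0288). The sum of the 10 astrocyte markers is mostly Slco1c1 and Slc7a10, and Slc7a10 itself passed as rhythmic in Ctrl. As a covariate this sum thus does not measure admixed astrocytes alone. The causes were not tested. The 7-marker alternatives and the removal of 4 libraries were chosen after seeing the data.

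The level difference of Aqp1 ranged from -0.018 to 0.071 with 1 library left out and was -0.0063 without Ctrl CT16 and SCNx CT0. That of Aqp4 ranged from -0.39 to 1.01 with 1 library left out, and was -0.39 with DESeq2, which replaced the count of SCNx CT32 (4304) by 310, -0.0017 with 7 astrocyte markers as covariate, -0.029 without Ctrl CT4 and SCNx CT32, and -0.041 with circadian time as a replicate block. None of these passed. The block was fitted for level only and changed no call for the 3 genes. Libraries of the same circadian time share only that time. Their deviations from the group means correlated at -0.44 to 0.33 over 12 pairs, 5 of them over 0.1, and 1 of 12 correlated best with its own time.

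Relations to marker sums changed with the list and the libraries. Without the 2 farthest libraries, r was -0.54 for Aqp4 in Ctrl and 0.093 for Aqp1 in SCNx. With neuronal and cerebellar markers it was 0.83 for Aqp4 in Ctrl (permutation, adjusted p = 0.0408) and 0.94 in SCNx (permutation, adjusted p = 0.00294), -0.12 for Aqp1 in Ctrl and -0.034 for Aqp11 in Ctrl. With the 7 astrocyte markers it was 0.89 for Aqp4 in Ctrl and 0.97 in SCNx, and with the same list without the 2 farthest libraries it was -0.12 for Aqp1 and -0.17 for Aqp11 in Ctrl, and 0.20 for Aqp1 and 0.22 for Aqp11 in SCNx. Across alternatives, 918 (without Ctrl CT44) to 2901 genes (without the 4 libraries) were called rhythmic in Ctrl, 0 to 1384 in SCNx, 163 to 654 in the difference and 0 to 7 in level, the upper values of SCNx and of the difference coming from the fit without a filter. With 1 mouse per time, the spread between mice at 1 time was not measured.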

Other observations

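Of the 9 aquaporins outside the tests, Aqp8 and Aqp9, channels known from hepatocytes, were high in the libraries with hepatocyte genes. Aqp9 had 419 counts in Ctrl CT16 and 1304 in SCNx CT0 and at most 13 in any other library, and Aqp8 had 20 and 1206. The part of hepatocyte RNA in these counts was not tested. Aqp6 had 33 counts in SCNx CT12 and at most 6 in Ctrl. In KO it had 9 counts at ZT7 and 8 at ZT18 (0.516 and 0.443 CPM, against at most 0.127 CPM in Ctrl). Aqp5 had 12 and 15 counts in KO against at most 3 in Ctrl. Aqp7 had 1 to 28 counts and Aqp2 0 to 10. Aqp3 had at most 4 counts in Ctrl and 2 in SCNx, and Mip and Aqp12 had at most 1 in Ctrl and SCNx.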
